A study of Bos taurus with 2 samples.

Results

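The promoters of 8 genes of the red blood cell lineage fell into 2 classes in bovine bone. Those of alpha globin (HBA), TAL1, GFI1B and ANK1 were mostly unmethylated, with levels between 1.03% and 17.2% in both samples, whereas those of beta globin (HBB), KLF1 and SLC4A1 were mostly methylated, between 54.4% and 75.5%. The promoter of EPOR lay between them, at 30.3% in the first sample and 17.7% in the second. In KLF1 the unmethylated stretch lay downstream of the start, inside the gene. In EPOR the level was lower from 250 bp before to 50 bp after the start, at 16.7% and 6.42%. The first kilobase of EPOR was at 3.91% and 3.94%. Neither HBB nor SLC4A1 had any tested 1 kb window under 20% in both samples within 10 kb of the start. Of all windows near gene ends only 6.85% were that low, and 16 and 20 windows of these genes were tested.

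Red blood cells form in the marrow that fills the cavities of bone. Erythropoietin, acting on its receptor, keeps their precursors alive, and a small set of transcription factors then switches on the globin, haem and membrane genes while the cell condenses and finally expels its nucleus. Methylation of cytosine in CpG dinucleotides is low at most CpG-dense gene starts in all cell types, while at CpG-poor starts of tissue-specific genes a low level usually marks cells in which the gene is or has been active.

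The data were whole-genome bisulfite sequencing of bone DNA from female Holstein cattle, in 2 samples of 1 group (Bone 1 and Bone 2), with no treatment, time or age given in the labels. The labels do not say whether the samples came from different animals. All p-values below set the difference between these 2 libraries, which may be technical, against counting error only. They measure no spread between animals. The 8 genes were taken from a list of symbols (HBB, HBA, KLF1, EPOR, SLC4A1, ANK1, TAL1, GFI1B), and all 8 were found among the 21162 protein-coding genes of chromosomes 1 to 29 and X. Cattle carry a second copy of alpha globin (HBA1), which was described beside HBA. A level is the share of methylated calls among all calls of a region. Each call is 1 read of 1 CpG, so calls on the same read are not independent. The intervals, which cover counting error only, are therefore too narrow and the p-values too small. Bone holds many cell types, and a lower level from more cells of a type cannot be told apart from a lower level within a type.

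Bone 1 had 462047525 calls on these chromosomes and a level of 72.3%, and Bone 2 had 406703424 calls and 58.7%. Bone 2 was therefore lower across the genome, with an odds ratio (the odds of a methylated call in Bone 1 over those in Bone 2) of 1.84. Depth also varied with CpG content in opposite ways: at gene ends with 5 to 9 CpG sites the samples had 12.1 and 22.3 calls per site, and at ends with at least 150 sites 18.8 and 4.62. The summed calls of all gene ends gave an odds ratio of 0.823, while the odds ratios computed within sites had a median of 2.21 over the same ends and came to 2.45 when combined over the genome. The promoters and windows below were compared in 2 ways, on summed calls and with every CpG site as its own stratum, and the bodies on summed calls only. The tissue label was compared with marker genes at the CpG-richer end of each gene: of 10 osteoblast and osteocyte genes with enough calls 3 were under 20% in both samples (COL1A1, COL1A2 and SP7), as were 1 of 5 megakaryocyte genes, 3 of 4 cartilage genes and none of 10 myeloid, 8 lymphoid, 5 fat and 4 liver genes, against 51.1% of all genes. These lists differed in CpG content. The ends held a median of 35.5 CpG sites in the osteoblast and osteocyte list and in the myeloid list. The medians were 31.5 in the lymphoid, 28 in the megakaryocyte, 16 in the fat, 25 in the liver and 118 in the cartilage list, against 69 for all genes. How far the counts go with CpG content was not tested. The median levels of the osteoblast and osteocyte list were 74.8% in Bone 1 and 55.3% in Bone 2, near the 80.4% and 57.1% of the liver list. The myeloid and lymphoid lists had median levels of 52.8% and 41.9% in Bone 1 and of 42.1% and 38.2% in Bone 2.

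The promoter was taken as 1000 bp before to 500 bp after the start. The gene table used (RefSeq, ARS-UCD2.0) gives no strand, so the start of each gene was read from conserved gene order. In 7 of the 8 genes this was also the end with more CpG sites, KLF1 being the exception with 25 sites at the start and 35 at the other end. No other annotated gene overlapped any of these promoters. Since the strand of most genes was not known, the background was both ends of all genes, of which 41039 could be tested with 20 or more calls per sample, and separately the CpG-richer end of each gene.

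Of the 8 promoters, 4 were under 20% in both samples, against 27.6% of all gene ends and 51.1% of CpG-richer ends. The median over the 8 promoters was 20.05% in Bone 1 and 17.5% in Bone 2. Over all gene ends it was 70.0% and 51.9%, and over CpG-richer ends 12.8% and 17.1%, so the set as a whole resembled CpG-richer ends. The classes separated by CpG content. The 4 low promoters held 62 (GFI1B), 72 (HBA), 84 (TAL1) and 191 (ANK1) CpG sites, and the other 4 held 16 (HBB), 25 (KLF1), 36 (EPOR) and 39 (SLC4A1). Among all gene ends with at least 62 sites 76.2% were under 20% in both samples, against 1.32% of those with at most 39 sites. EPOR, with 36 sites, thus had a lower level than the median of 70.9% for ends with 35 to 39 sites, as the plot of level against CpG sites shows.

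**Figure D1:**
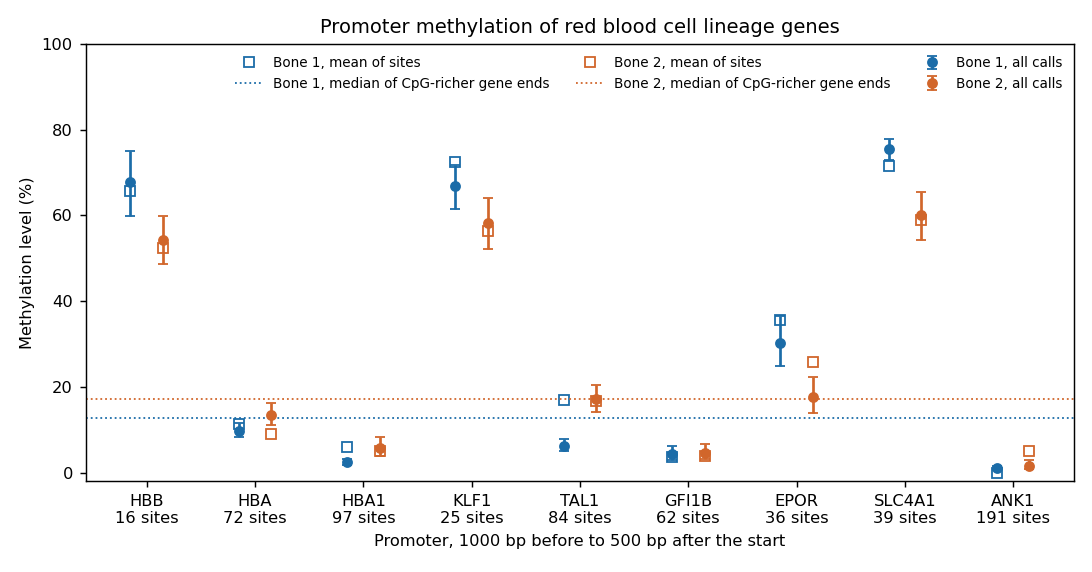
Methylation level (%, vertical axis) of the promoters of the 8 genes and of HBA1 in Bone 1 (blue) and Bone 2 (orange), from all calls with 95% Wilson intervals (filled circles) and as the mean of CpG sites read 5 or more times per sample (open squares), with the median of CpG-richer gene ends as dotted lines. HBB, KLF1 and SLC4A1 sit above 50% in both samples, and the filled and open symbols of TAL1 in Bone 1 are far apart.

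**Figure D2:**
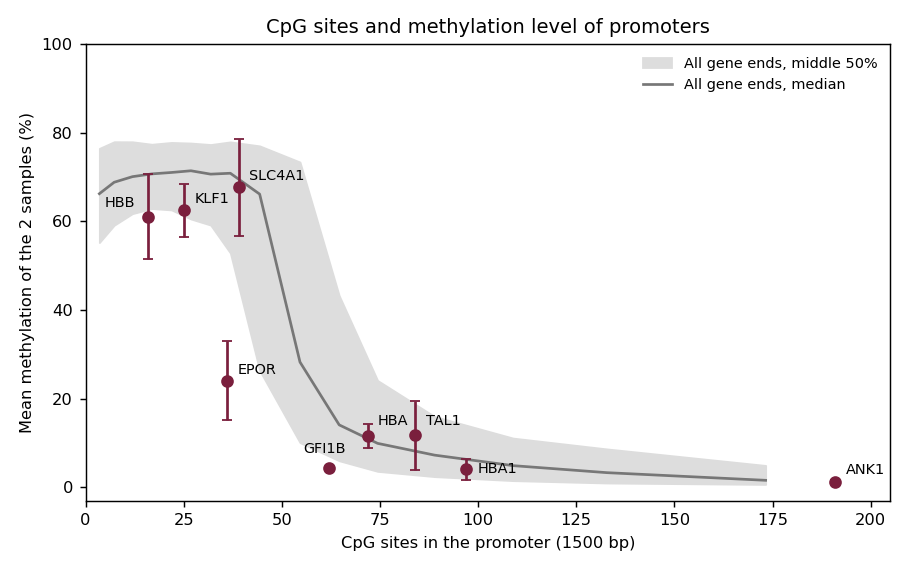
Mean methylation level of the 2 samples (%, with the SD as bars, n = 2) against the number of CpG sites in the 1500 bp promoter for the 8 genes and HBA1, over the median (line) and middle 50% (grey) of all gene ends in bins of CpG sites. EPOR lies far below the grey band and HBB and GFI1B slightly below it, ANK1 lies to the right of its end, and the other genes lie within it.

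Beta globin, the beta chain of adult haemoglobin, lies on chromosome 15. Its promoter was at 67.8% in Bone 1 (95% Wilson interval 59.8 to 74.9, 143 calls) and 54.4% in Bone 2 (48.7 to 59.9, 298 calls). These intervals touch only at their edges, and the exact test of summed calls gave an adjusted p of 0.0119. Of 11 sites read 5 or more times per sample, 7 were lower in Bone 2, 3 were higher and 1 was equal, and with sites as strata the odds ratio was 1.84 (exact test, adjusted p = 0.0272). Against the genome-wide ratio the promoter did not pass the exact test (adjusted p = 0.961 on summed calls and 0.479 with sites as strata), so its difference could not be told from that of the genome. The gene itself was at 68.7% and 42.2%. This was the widest gap among the 8 gene bodies, and of the windows the one from 1 to 2 kb after the start had the widest gap, with 75.0% in Bone 1 and 26.9% in Bone 2 over 7 sites, with 36 and 93 calls. That window passed the exact test against the genome-wide ratio on summed calls (adjusted p = 0.00433) but not with sites as strata (adjusted p = 0.0917), although all 5 sites with enough calls were lower in Bone 2.

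The other globin genes of this cluster were methylated too. The embryonic genes HBE1, HBE4 and HBE2 had promoters at 75.0%, 69.8% and 72.6% in Bone 1 and at 59.9%, 68.0% and 65.3% in Bone 2. The fetal gene HBG was at 80.7% and 65.2%. All of these starts were CpG-poor, with 8 to 19 sites. HBB, expressed in adult animals, had the lowest promoter level of these 5 genes in each sample, a difference between genes that was not tested.

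Alpha globin, the other chain of haemoglobin, presented the reverse picture on chromosome 25. The promoter of HBA was at 9.75% in Bone 1 (8.23 to 11.5, 1251 calls) and 13.5% in Bone 2 (11.1 to 16.3, 660 calls), and that of HBA1 at 2.43% and 5.79%. On summed calls both were higher in Bone 2 (exact test, adjusted p = 0.0217 and 0.00112), but with sites as strata the direction turned and neither passed (odds ratios of 1.42 and 1.25, adjusted p = 0.0949 and 0.581). The gene bodies were at 2.92% and 2.25% for HBA and 2.20% and 4.92% for HBA1. The copies start 3054 bp apart and share the position of 54 of their 55 CpG sites, so reads may have been placed in the wrong copy or lost, and the values of the copies are uncertain. In HBA1 the part after the start had 730 calls in Bone 1 and only 66 in Bone 2.

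Low levels recurred around the alpha globin copies. In the 20 windows around HBA, 7 were under 20% in both samples, against 6.85% of all windows near gene ends. The lowest was the window from 6 to 7 kb, with 84 sites at 0.485% and 0.281%, which lies at the theta globin gene HBQ1. Between the low windows the level rose to 62.1% and 39.5% from 4 to 5 kb and to 25.3% and 29.1% from 5 to 6 kb. More than 4 kb before the start and more than 8 kb after it, all windows in reach were at 72.5% or more in both samples. Among the neighbours, the promoter of HBM (mu globin) was at 3.47% and 4.03% and that of HBQ1 at 6.11% and 13.3%. As the mean of sites HBQ1 was at 7.37% and 6.14%, and with sites as strata it was lower in Bone 2 (odds ratio of 4.12, exact test, adjusted p = 0.00116). The start of the embryonic gene HBZ was at 70.2% and 67.8%, and its CpG-richer opposite end at 14.3% and 44.5%, a gap that shrank to 40.7% against 38.5% as the mean of sites. The promoters of all 5 beta-type genes examined and of HBZ were thus above 50% in both samples, and those of HBA, HBA1, HBM and HBQ1 were below 20%.

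**Figure D3:**
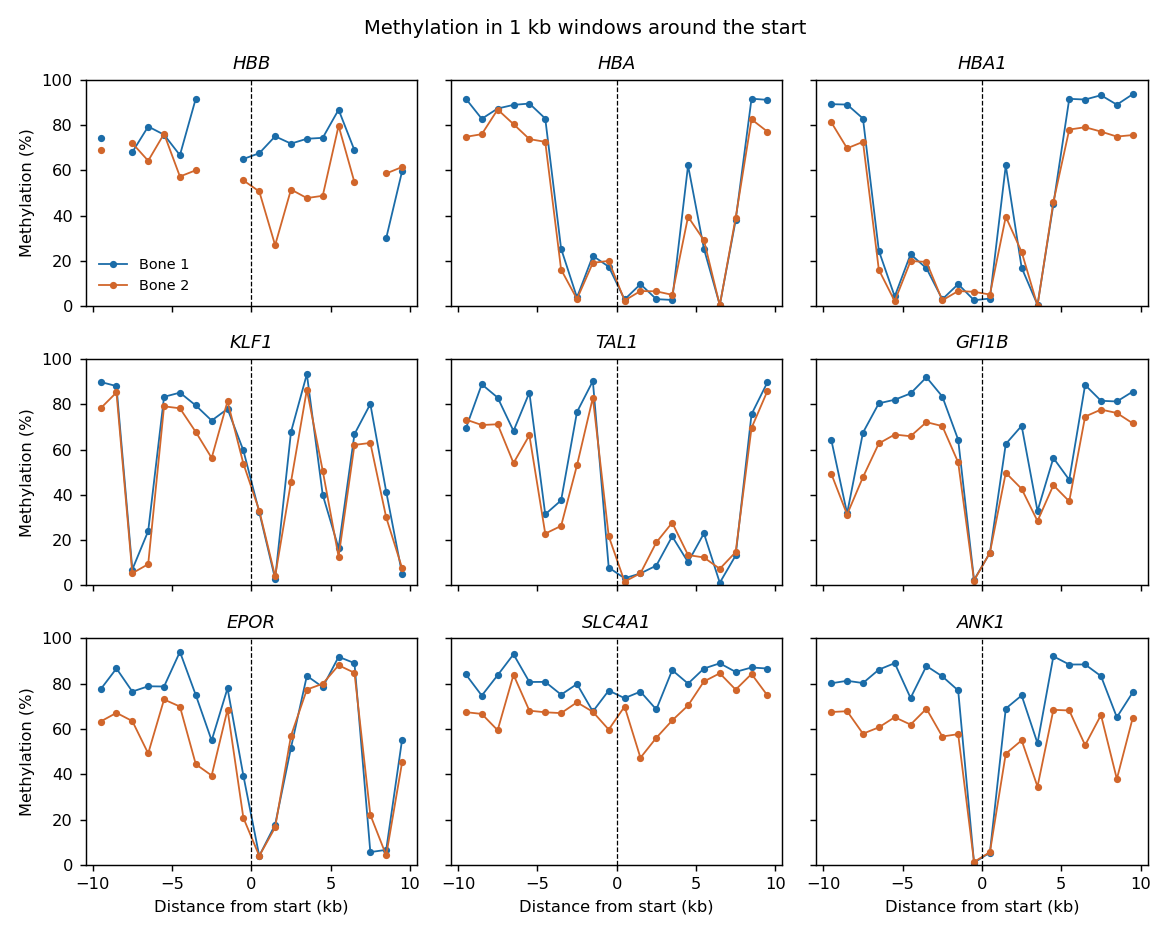
Methylation level (%) in 1 kb windows from 10 kb before to 10 kb after the start (dashed line) of the 8 genes and HBA1 in Bone 1 (blue) and Bone 2 (orange), for windows with 20 or more calls per sample. HBB and SLC4A1 show no window under 20% in both samples, the alpha globin genes have low windows on both sides of the start with higher ones between them, and in KLF1 the lowest window near the gene is 1 to 2 kb after the start.

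KLF1, the zinc finger factor that activates adult beta globin, lies on chromosome 7. Its promoter was at 66.8% in Bone 1 (61.5 to 71.7, 322 calls) and 58.3% in Bone 2 (52.3 to 64.0, 266 calls). The difference missed the threshold on summed calls (exact test, adjusted p = 0.0558) and passed it with sites as strata (odds ratio of 2.00, adjusted p = 0.00106), where all 8 sites after the start were lower in Bone 2. With 2000 bp on either side of the start the direction turned on summed calls, with 19.2% in Bone 1 and 35.1% in Bone 2 (exact test, adjusted p = 7.84e-22). Over sites with at least 10 calls per sample the levels were 59.2% and 58.6% (exact test, adjusted p = 1). Further into the gene the level fell steeply. The first kilobase was at 32.4% and 33.1% on summed calls, but at 42.6% and 25.4% as the mean of sites, and it differed with sites as strata (odds ratio of 3.01, exact test, adjusted p = 5.17e-06). The next kilobase, which holds 83 CpG sites, was at 2.89% and 4.06%. From 3 to 4 kb the level was back at 93.4% and 86.5%. The unmethylated interval of KLF1 was thus within its 4303 bp body, and the body as a whole was at 51.8% and 51.9%. Of its 3 other low windows, the one upstream lay at the neighbouring gene GCDH and the farthest downstream at MAST1.

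TAL1, a helix-loop-helix factor needed to make blood cells and later acting in the erythroid lineage, lies on chromosome 3. Its promoter was at 6.28% in Bone 1 (5.01 to 7.85, 1130 calls) and 17.2% in Bone 2 (14.3 to 20.5, 553 calls). This was the largest difference on summed calls among the low promoters (exact test, adjusted p = 8.87e-11). A group of 5 sites at positions -904 to -768 bp from the start was at 80.0% and 78.9%, and held 3.98% of the promoter's calls in Bone 1 and 16.3% in Bone 2. Without them the promoter was at 3.23% and 5.18%, a difference that was not tested. With sites as strata the odds ratio was 0.948 and the promoter did not differ at a ratio of 1 (exact test, adjusted p = 0.937). The methylated stretch thus ended upstream of the start, and from position -560 to 2807 bp the 81 sites read 5 or more times per sample, of 176 sites, were all under 20% on the pooled calls of both samples, at 3.38% and 4.30% in all. Of these 81 sites, 6 reached 20% in 1 of the samples.

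Low levels reached far into TAL1. Of 20 windows 6 were under 20% in both samples on summed calls, all between the start and 8 kb after it, a number that only HBA exceeded among the 8 genes. A low stretch also lay upstream, where 50 sites read 5 or more times per sample, from -4230 to -3677 bp, were at 3.52% and 1.36%. As means of sites the windows holding it were under 20% in both samples, at 18.9% and 13.2% (-5 to -4 kb) and at 13.1% and 11.8% (-4 to -3 kb). The window from 6 to 7 kb after the start, with 101 CpG sites, was at 1.18% in Bone 1 and 7.33% in Bone 2, and was called by both forms of the exact test against the genome-wide ratio (adjusted p = 6.5e-14 and 3.57e-17). The 24 sites read 5 or more times per sample did not share this direction, with 6 lower in Bone 2, 2 higher and 16 equal, and means of 2.01% and 1.53%. In Bone 2 its 28 methylated calls fell on 28 different sites, with no site having more than 1, at a median depth of 3 calls per site. Calls on the same read are not independent, and how many reads carried these calls was not tested. The window from 3 to 4 kb was also higher in Bone 2, at 21.7% and 27.7% on 480 and 249 calls and at 18.3% and 28.7% as the mean of sites. It did not pass at a ratio of 1 on summed calls (exact test, adjusted p = 0.108), and it passed with sites as strata both at a ratio of 1 and against the genome-wide ratio (exact test, adjusted p = 0.0152 and 1.13e-10).

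GFI1B, a transcriptional repressor of the erythroid and megakaryocyte lineages, lies on chromosome 11. Its promoter was at 4.25% in Bone 1 (2.85 to 6.30, 541 calls) and 4.64% in Bone 2 (3.23 to 6.62, 604 calls). These levels differed by less than the counting error (exact test, adjusted p = 0.818). The samples had a similar depth here, 8.73 and 9.74 calls per site. The low stretch was sharply bounded, with 49 sites read 5 or more times per sample from -901 to 410 bp of the start at 1.61% and 1.97%, and the windows on either side of the first kilobases were at 64.4% and 54.4% before and 62.5% and 49.8% after. The body of GFI1B was at 75.1% and 55.4% on summed calls, and at 64.0% and 56.3% as the mean of sites.

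**Figure D4:**
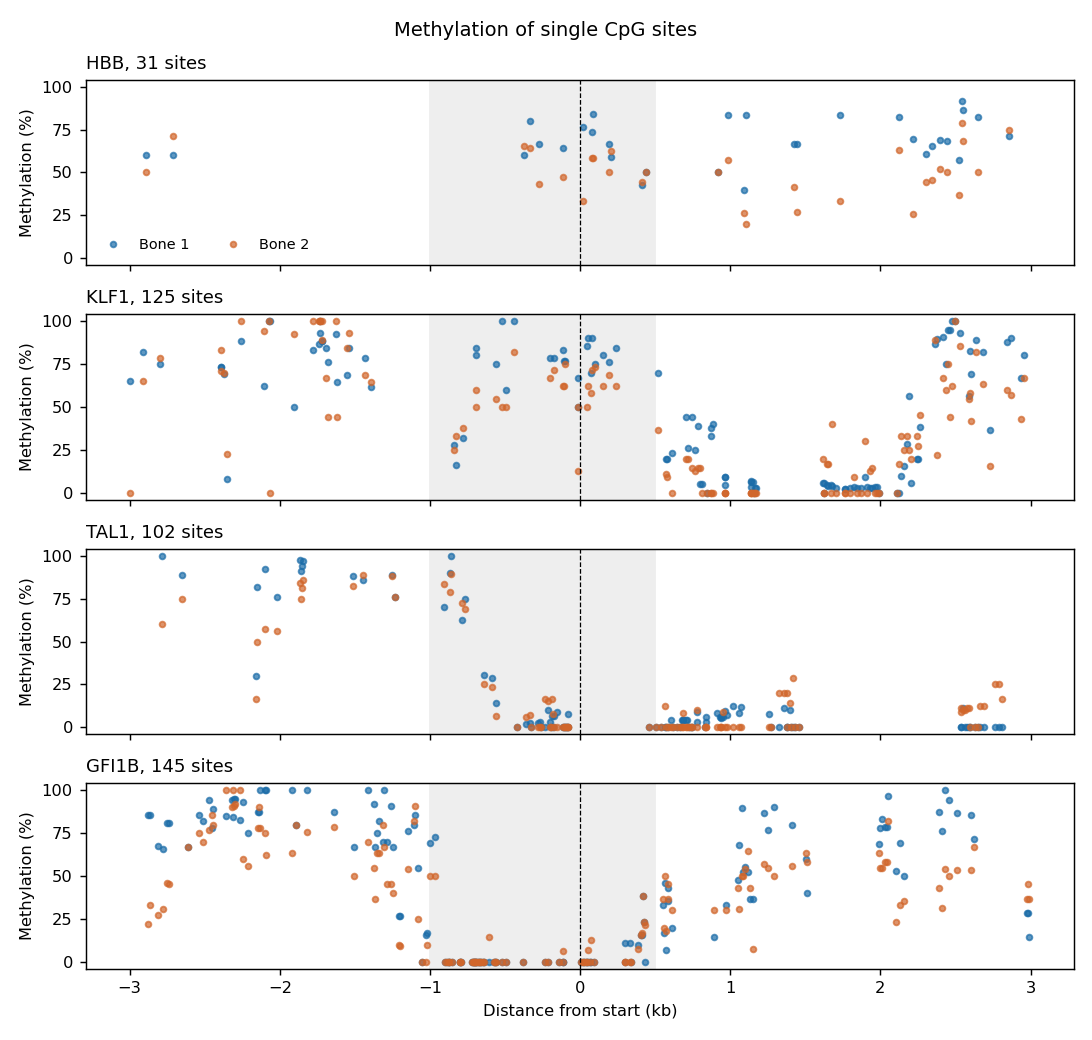
Methylation level (%) of single CpG sites read 5 or more times per sample, from 3 kb before to 3 kb after the start (dashed line) of HBB, KLF1, TAL1 and GFI1B, with the promoter in grey. HBB has few sites and all are methylated in part, and the low stretches of TAL1 and GFI1B begin inside the promoter. KLF1 has a run of low sites after the promoter, and sites inside it reach down to 16.0% in Bone 1 and 12.5% in Bone 2.

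EPOR, the erythropoietin receptor, also lies on chromosome 7. Its promoter was at 30.3% in Bone 1 (24.8 to 36.5, 234 calls) and 17.7% in Bone 2 (13.9 to 22.3, 316 calls), and the intervals did not overlap. The difference passed at a ratio of 1 on summed calls and with sites as strata (exact test, adjusted p = 0.00135 and 0.00922) and did not pass against the genome-wide ratio (0.777 and 0.523). From 250 bp before to 50 bp after the start the levels were 16.7% and 6.42%, and the difference did not pass (exact test, adjusted p = 0.212). With 2000 bp on either side of the start the levels were 16.7% and 18.7%, and the difference did not pass (exact test, adjusted p = 0.159). The difference of the 1500 bp promoter lay before the start, where the kilobase upstream was at 39.4% and 20.7%. The first kilobase of the gene, with 57 sites, was at 3.91% and 3.94%, and the next was at 17.7% and 16.5%. From 2 to 3 kb the level was 51.7% and 57.0%, a difference that did not pass at a ratio of 1 (exact test, adjusted p = 0.0716). The body as a whole was at 40.3% and 40.5%. The opposite end of EPOR was at 86.1% and 86.4%, and a low stretch of 56 sites read 5 or more times per sample, from 7550 to 8508 bp after the start, at 0.812% and 0.994%, lay at the neighbouring gene SWSAP1.

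SLC4A1, the band 3 anion exchanger of the red cell membrane, lies on chromosome 19. Its promoter was at 75.5% in Bone 1 (72.9 to 77.8, 1178 calls) and 60.0% in Bone 2 (54.2 to 65.5, 285 calls). This 15.5-point difference was the largest among the 8 promoters on summed calls, while as means of sites that of KLF1 was wider (72.4% and 56.3%, against 71.5% and 58.9% for SLC4A1). It passed at a ratio of 1 in both forms (exact test, adjusted p = 1.39e-06 and 3.89e-05), but not against the genome-wide ratio (0.557 and 0.295). From 250 bp before to 50 bp after the start the samples were at 68.6% and 68.5%, a difference that did not pass (exact test, adjusted p = 1). All of its 20 windows were higher in Bone 1, as were 686211 of all 763374 windows near gene ends. Their levels ranged from 67.7% to 93.0% in Bone 1 and from 47.3% to 84.6% in Bone 2. At a ratio of 1 on summed calls 9 of the 20 passed, against 68.3% of all windows near gene ends. None of the 20 passed beyond the genome-wide ratio by either form of the exact test, against 29.6% of all windows on summed calls and 14.1% with sites as strata. The gene body, at 83.6% and 74.7%, ranked above 91.3% of all gene bodies in Bone 1 and above 97.6% in Bone 2.

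ANK1, the ankyrin that ties band 3 to the spectrin skeleton, lies on chromosome 27 and at 245260 bp is by far the longest of the genes. Its promoter, with 191 CpG sites the densest, was at 1.03% in Bone 1 (0.642 to 1.64, 1656 calls) and 1.66% in Bone 2 (0.906 to 3.04, 601 calls). Bone 2 had only 3.15 calls per site here, and 8 sites were read 5 or more times per sample. The promoter was measured only at the outer end of this long gene, and any other start inside it was not examined. The low stretch was narrow: the windows on either side of the start were at 0.931% and 1.26% before and 5.42% and 5.58% after, while the next were at 77.0% and 57.7% and at 69.0% and 49.1%. Of the other windows, 9 were called beyond the genome-wide ratio on summed calls with Bone 1 higher, and 5 with sites as strata, against 20.9% and 6.67% of all windows. The body was at 79.3% and 67.8% over 5850 sites, and a microRNA gene, MIR486, and 2 long noncoding RNA genes lie within it.

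Among the 8 promoters, 5 differed between the samples at a ratio of 1 on summed calls, against 70.0% of all gene ends. Of these, HBB, EPOR and SLC4A1 were lower in Bone 2 and HBA and TAL1 higher. With sites as strata 4 differed, against 62.2% of gene ends: HBB, EPOR, SLC4A1 and KLF1, all lower in Bone 2. None of the 4 low promoters passed this test. Against the genome-wide ratio 4 promoters passed on summed calls, a share of 8 to be read against 48.7% of gene ends, and 4 with sites as strata, against 8215 of 41039 gene ends (20%). Both sets were HBA, TAL1, GFI1B and ANK1, each with Bone 2 higher than the genome-wide ratio would give. On summed calls over sites with at least 5 calls per sample, 2 promoters passed against this ratio. With promoters of 250 bp before to 50 bp after the start 0 passed, on fewer calls. Among all 12330 gene ends with a mean level under 20%, 2808 passed this test with sites as strata, 2699 of them with Bone 2 above what the ratio would give. In the 1500 bp promoters a lower level in Bone 2 was thus measured with sites as strata at HBB, EPOR, SLC4A1 and KLF1 and was not detectable at the 4 low promoters. Gene ends in general were split in the same way. At a ratio of 1 with sites as strata, 21697 of 28709 ends with a mean level of at least 20% were lower in Bone 2. Of the 12330 ends under 20%, 3403 were. On summed calls KLF1 missed the threshold, and with 2000 bp on either side KLF1 and EPOR turned direction. In that wider region HBA (16.3% and 12.6%) and GFI1B (32.9% and 28.1%) passed as lower in Bone 2 (exact test, adjusted p = 0.00128 and 0.0126), and ANK1 (15.3% and 23.4%) as higher (adjusted p = 2.81e-10).

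Gene bodies gave 5 differences at a ratio of 1 (HBB, SLC4A1, ANK1, TAL1 and GFI1B), against 91.0% of all bodies, and 5 beyond the genome-wide ratio (relative to that ratio, HBB and GFI1B with Bone 1 higher, and KLF1, EPOR and TAL1 with Bone 2 higher), against 80.5%. Within sites the body of GFI1B had an odds ratio of 1.61, below the genome-wide 2.45, so its direction relative to the genome turned. The medians of the 8 bodies were 60.3% in Bone 1 and 47.0% in Bone 2, below the 72.0% and 58.8% of all bodies. As means of sites all 8 bodies were lower in Bone 2, including KLF1 (57.3% and 48.9%), EPOR (40.6% and 39.6%) and TAL1 (40.7% and 38.3%), whose summed calls gave 32.2% and 34.5%. By this measure only 1.38% of all 20620 bodies were higher in Bone 2, so the 8 resembled bodies in general. Of 156 windows around the 8 starts, 24 (15.4%) were under 20% in both samples, against 6.85% of all windows. These 156 windows held a median of 19 CpG sites, against 12 for all windows, which surrounded both ends of every gene. How far the shares given here go with CpG content was not tested. On summed calls 45 windows passed beyond the genome-wide ratio, against 29.6% of all windows, and 26 of the 156 passed with Bone 2 above what the ratio would give, against 8.66%. With sites as strata 36 passed, against 14.1%, and 29 with Bone 2 above the ratio, against 7.39%. Such a window can still be lower in Bone 2, as from 3 to 4 kb after the start of EPOR (83.5% and 77.4%). At a ratio of 1 with sites as strata 80 of the 156 windows were lower in Bone 2 and 2 higher. By the same test 493926 of all 763374 windows were lower in Bone 2 and 5594 higher. The windows of KLF1, EPOR, TAL1 and GFI1B supplied 22 of these 29 and SLC4A1 none.

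A further 55 genes with roles in red blood cells were examined at their CpG-richer end. Of these, 32 (58.2%) were under 20% in both samples, against 51.1% of the CpG-richer ends of all genes, with 27 to 173 CpG sites (median 101), and the other 23 held 9 to 135 sites (median 20). The medians of the list were 7.68% in Bone 1 and 13.5% in Bone 2. With sites as strata 22 (40%) differed at a ratio of 1, all lower in Bone 2, against 52.1% of CpG-richer ends. By role, 8 of 10 transcription factors and cofactors, 4 of 4 receptor and signalling genes and 7 of 9 genes of haem synthesis were under 20% in both samples, as were 7 of 15 membrane genes, 2 of 6 globin genes, 1 of 2 genes of iron transport and 3 of 9 other genes. These counts were not tested, and CpG sites differed with role, with medians of 44 in the globin genes, 48 in the membrane genes, 72 in haem synthesis, 106.5 in the receptor and signalling genes and 111 in the transcription factors. By the mean of both samples the lowest ends were those of MYB (0.386% and 0.765%), STAT5B (0.491% and 0.677%) and UROS (0.435% and 0.856%), a transcription factor, a signal transducer and a haem enzyme. The highest by the same mean were those of SLC25A37, a mitochondrial iron importer (93.3% and 88.6%), GYPB, a membrane protein (83.2% and 73.1%), and KEL, a blood group protein (80.7% and 72.5%). Some genes used only or mainly in the erythroid lineage were methylated at this end, such as GATA1 (84.2% and 65.7%) and ALAS2, the erythroid enzyme that begins haem synthesis (84.1% and 67.1%). Both lie on chromosome X, and their measured ends (22 and 9 CpG sites) may not be their starts. Other genes of the list were low at this end, such as the globin gene HBM (3.47% and 4.03%, 120 sites) and the membrane gene ERMAP (12.7% and 18.6%, 48 sites). These examples and the grouping by role were chosen after the values were seen.

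**Figure D5:**
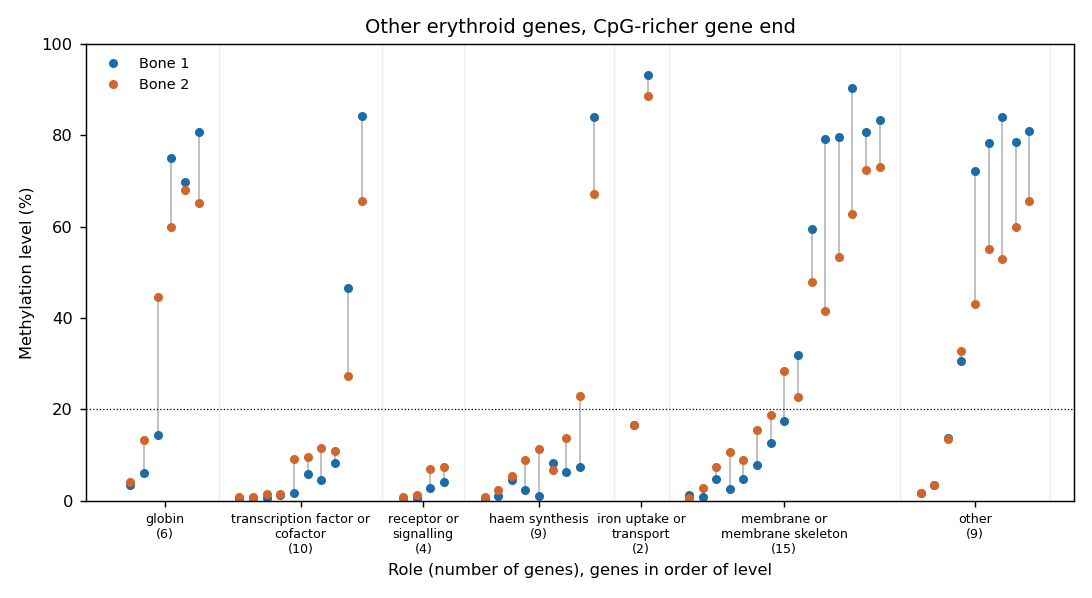
Methylation level (%) of the CpG-richer gene end of 55 other erythroid genes in Bone 1 (blue) and Bone 2 (orange), grouped by role and ordered by level, with each gene's samples joined by a line and 20% marked. Receptor and signalling genes all lie under 20%, while globin and membrane genes are spread over the whole range.

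The largest differences among the genes of this list that passed beyond the genome-wide ratio on summed calls were those of EPB42, protein 4.2 of the membrane (79.1% and 41.5%), TRIM10 (83.9% and 52.9%) and the opposite end of HBZ. None of these passed against the genome-wide ratio with sites as strata (exact test, adjusted p = 0.205, 0.0735 and 0.277). At a ratio of 1 with sites as strata EPB42 and TRIM10 passed (exact test, adjusted p = 8.93e-10 and 1.26e-10) and HBZ did not (0.357). The level nearest to that of HBB, by the larger of the absolute differences in the 2 samples, was that of HBE1 (7.17 points).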

How the data were processed

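Counts of methylated and unmethylated calls per cytosine were deposited by the authors as Bismark CpG reports, 1 for each bone sample. The submitters' processing notes name FastQC 0.11.5, Trim Galore 0.4.5, Bowtie2, Bismark 0.19.0 and the build ARS-UCD1.2, whereas the methods of the study name another build and Bismark version. The reports name none. Duplicate reads were removed by the authors, and the number of reads is not given in the sources used here.

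Strands were merged to 27138930 CpG sites. Genes came from a RefSeq table of ARS-UCD2.0, with no strand, transcript starts or sequence, so starts were set by gene order, and its coordinates are not printed. The fit of this table to the reports was checked. CpG density at gene ends was 1.95 to 3.31 times that 10 kb away on all 30 chromosomes. The last gene ended before the last CpG site on 29 of the 30, and 100 bp past it on chromosome 29. The copies of alpha globin shared 54 CpG positions as placed and at most 8 when 1 was moved by 1 to 10 bp. That last check covers only the spacing of the copies, because a shift of both would leave it unchanged.

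Levels were summed methylated over all calls, for regions with 20 or more calls per sample (bodies also at least 750 bp). Two-sided Fisher exact tests compared the libraries against odds ratios of 1 and of 1.84, with Benjamini-Hochberg adjustment over all gene ends, bodies or windows at 0.05. The exact test with sites as strata, against 1 and 2.45, was added after the data were seen. Both tests were tested on simulated data. Calculations used numba 0.67.0, pandas 2.3.3 and numpy 2.4.6 under Python 3.11.15. The 8 genes and the lists of erythroid, osteoblast and osteocyte, myeloid, lymphoid, megakaryocyte, fat, cartilage and liver genes were chosen with earlier results of these data known. Of 58 erythroid symbols 55 were found. Named genes were the 8, the alpha globin copies, globin genes within 100 kb, and from the erythroid list the 3 lowest, the 3 highest, the 3 with the largest difference beyond the ratio and the 3 nearest to HBB, of which only the nearest is reported here.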

Additional observations from a re-analysis of the deposited data

How the results depend on the processing

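Leaving out either sample moved the median promoter level of the 8 genes, 17.9% as the mean of both samples, to between 17.5% and 20.05%, and the median body level of 53.7% to between 47.0% and 60.3%; counts of differences need both samples. The median promoter level moved to 9.89% with promoters of 250 bp before to 50 bp after the start, to 23.2% with 2000 bp on either side, to 23.7% as unweighted site means, to 23.3% over sites with at least 5 calls per sample and to 35.1% with at least 10. At that last setting ANK1, a low promoter, had no such site and dropped out. The median body level moved to 72.0% without the first 2000 bp, over the 6 genes long enough. With the short promoters the exact test found 0 of 8 differing at a ratio of 1 and 0 beyond the genome-wide ratio, on fewer calls, and with a difference of at least 20 points required it found 0 of 8. In the short promoters Bone 2 minus Bone 1 was -29.0 points for HBB and -19.3 for KLF1, wider than in the 1500 bp promoters. Neither passed (exact test, adjusted p = 0.133 and 0.0605). For EPOR (-10.2), TAL1 (1.53), HBA (0.293) and SLC4A1 (-0.0831) it was narrower. For GFI1B and ANK1 it was 0.610 and -0.615. Sites with at least 5 calls gave 2 promoters and 3 bodies beyond the ratio instead of 4 and 5. With 2000 bp on either side 2 promoters (HBA and EPOR) were under 20% in both samples. With the short promoters 5 were (HBA, TAL1, GFI1B, ANK1 and EPOR). The shares of all gene ends and bodies under these settings were not computed, so these counts have no background beside them. At a ratio of 1, 87 windows passed instead of 45, against 68.3% of all windows.

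Of the 9 named promoters, 6 turned direction in a setting where the difference passed the exact test either there or as reported, and the cause was not tested. ANK1 turned once, without passing in either. With 2000 bp on either side, Bone 2 minus Bone 1 was 15.9 points for KLF1, -4.79 for GFI1B, -3.70 for HBA and 2.00 for EPOR. As unweighted site means it was -0.25 for TAL1, -2.33 for HBA and -0.73 for HBA1, which was also at -15.4 over sites with at least 10 calls per sample. With sites as strata, the odds ratio of Bone 1 over Bone 2 was 1.42 for HBA and 1.25 for HBA1. HBB and SLC4A1 kept their sign in every setting, but with the short promoters the difference of SLC4A1 was only -0.0831 points and did not pass (exact test, adjusted p = 1). Taking the CpG-richer end as the start, adjusting over CpG-richer ends, site strata, and site means for bodies were chosen after the data were seen, and none moved a count over the 8 genes by more than 1.5 times. No paired analysis was possible because both libraries belong to 1 group. Other transcript starts and promoter sequence features were not run, as the gene table used here holds neither. Depth limits ANK1, with 3.15 calls per site in Bone 2, and HBB, with 143 calls in Bone 1.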
